A study of Arabidopsis thaliana with 12 samples.

Results

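The comparison described here set white rosette leaves of melinoe against wild-type rosette leaves of Arabidopsis thaliana. Its members are 6 of the 12 libraries of the study, 3 of white leaves and 3 of wild type, and all genes counted in them, of which 19424 had enough counts to be tested. The plants carried the Col-0 genotype or melinoe, a mutant of the FMN/FHY gene made with ethyl methanesulfonate, and the mutant was also sampled as green and as green-white leaves, with 3 libraries each. Seeds were stratified for 48 h at 4 °C on medium with 1% sucrose. Seedlings moved to soil after 2 weeks and grew at 22 °C with 16 h light (75 µmol m−2 s−1) followed by 8 h darkness. No agent was applied to any group, and the labels give neither the age at harvest nor the number of plants behind a library. Polyadenylated RNA was sequenced on a DNBSEQ platform.

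FMN/FHY encodes a protein with 2 activities, a riboflavin kinase that makes the cofactor FMN and a hydrolase that returns FMN to riboflavin. FMN and its product FAD are carried by flavoproteins of respiration, photosynthetic electron transport, nitrogen assimilation and light perception. Leaf cells that do not build chloroplasts lack the nuclear-encoded antenna and photosystem proteins of green tissue, and they depend on sugar imported from other leaves. Nuclear genes for chloroplast proteins are under the control of light, of the GLK transcription factors and of signals from the plastid.

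Library totals lay between 25795702 and 26760055 estimated counts over all 12 libraries. White libraries held counts for 22342 to 22412 genes and wild-type libraries for 21521 to 21550. The 100 most abundant genes took at most 17.8% of the counts in white and 31.6 to 32.1% in wild type. The scaling factors followed this divide, at 1.11 to 1.12 in white and 0.903 to 0.910 in wild type. Levels are given as CPM, counts scaled to a common library size with these factors. A value after ± is, unless marked SD, a standard error of a log2 fold change between groups of 3 libraries. It was worked back from the F value of edgeR's quasi-likelihood test, fitted over all 12 libraries. In counts of genes "rose", "fell", "higher" or "lower" means an adjusted p under 0.05 in this test. These p-values rest on the spread between the libraries. Since the number of plants behind a library is not given, the spread between plants may not be covered. In bulk leaf RNA, fewer cells of a type and less RNA per cell cannot be told apart.

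White leaves differed from wild type at most genes. Of 19424 genes tested, 15521 changed (79.9%), with 7749 higher (39.9%) and 7772 lower (40%). A change of at least 2-fold was called for 4928 genes (25.4%), 2083 higher (10.7%) and 2845 lower (14.6%). The 3 white libraries lay wholly above or below the 3 wild-type libraries for 15789 genes (81.3%). The median log2 fold change of all genes was 0.00. Counts of called genes in a list are therefore to be read against 39.9% higher and 40% lower, and sizes are given beside them.

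**Figure D1:**
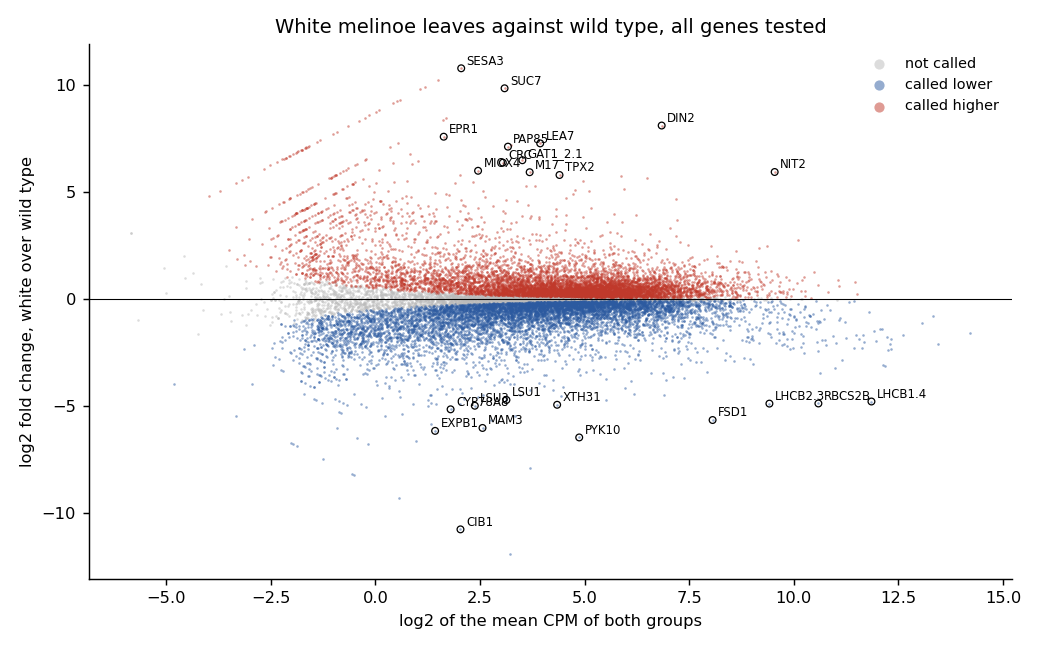
Log2 fold change of white melinoe leaves over wild type (vertical axis) against the log2 mean CPM of both groups (horizontal axis) for the 19424 genes tested, coloured by call. Circles mark the named genes of largest change, from SESA3 (10.78) and DIN2 (8.10) at the top to CIB1 (−10.76) and PYK10 (−6.47) at the bottom, and the diagonal streaks at the left are genes with few counts in one group. Fitted values of genes with no count in a group, SESA3 and CIB1 among them, depend on the prior count and are no bound.

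The mutated gene itself kept its transcript level. FMN/FHY (AT4G21470, chromosome 4, 11431104 to 11433322 on the plus strand of TAIR10.1) had 22.0, 24.5 and 23.3 CPM in the wild-type libraries and 24.2, 23.9 and 25.2 CPM in the white libraries. The 2 groups overlapped, and the log2 fold change of 0.07 ± 0.05 did not pass the test (adjusted p = 0.19). Without wild-type library B it was 0.12 (adjusted p = 0.044). The gene overlaps AT4G21480, and a point mutation need not alter a transcript level, so the values do not check the genotype.

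Of the 13 genes of flavin metabolism, 5 rose, 2 fell and 6 did not pass the test, with a median log2 fold change of 0.07. The largest rise was that of AT5G23330, annotated with FMN adenylyltransferase activity, the step from FMN to FAD. It had 8.19, 9.15 and 9.37 CPM in wild type against 28.8, 28.7 and 29.2 CPM in white leaves, a log2 fold change of 1.698 ± 0.06 (adjusted p = 7.9e-22). Its wild-type libraries all lay below 10 CPM and its white libraries close to 29 CPM. The largest fall was that of FHY1 (AT1G79790), an FMN hydrolase of the plastid, which went from 47.2, 48.8 and 47.4 CPM to 21.4, 20.4 and 20.1 CPM, a log2 fold change of −1.21 ± 0.05 (adjusted p = 2.9e-21). FHY1 overlaps AT1G79780, which makes its counts less certain. AT5G08340, with the same annotated activity as AT5G23330, shares reads with a copy and gave 0.15 ± 0.09 (adjusted p = 0.13).

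In riboflavin synthesis, RIBA1 and RIBA2, of the family that opens the pathway, rose by 0.63 ± 0.03 and 0.43 ± 0.04. Their relative RIBA3 gave 0.06 ± 0.04 (adjusted p = 0.20). PYRD (AT4G20960, 0.19 ± 0.05) and PYRR (0.36 ± 0.06), the deaminase and reductase of the next steps, rose as well, PYRD no longer under upper-quartile scaling (adjusted p = 0.054). AT4G11570, annotated as a haloacid dehalogenase-like hydrolase, fell from 276 to 286 CPM in wild type to 214 to 229 CPM in white leaves (−0.35 ± 0.03). The lumazine synthase COS1 (−0.04 ± 0.05), AT2G20690 with riboflavin synthase activity (0.06 ± 0.05) and the FAD hydrolase NUDX23 (−0.10 ± 0.05) did not pass the test.

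**Figure D2:**
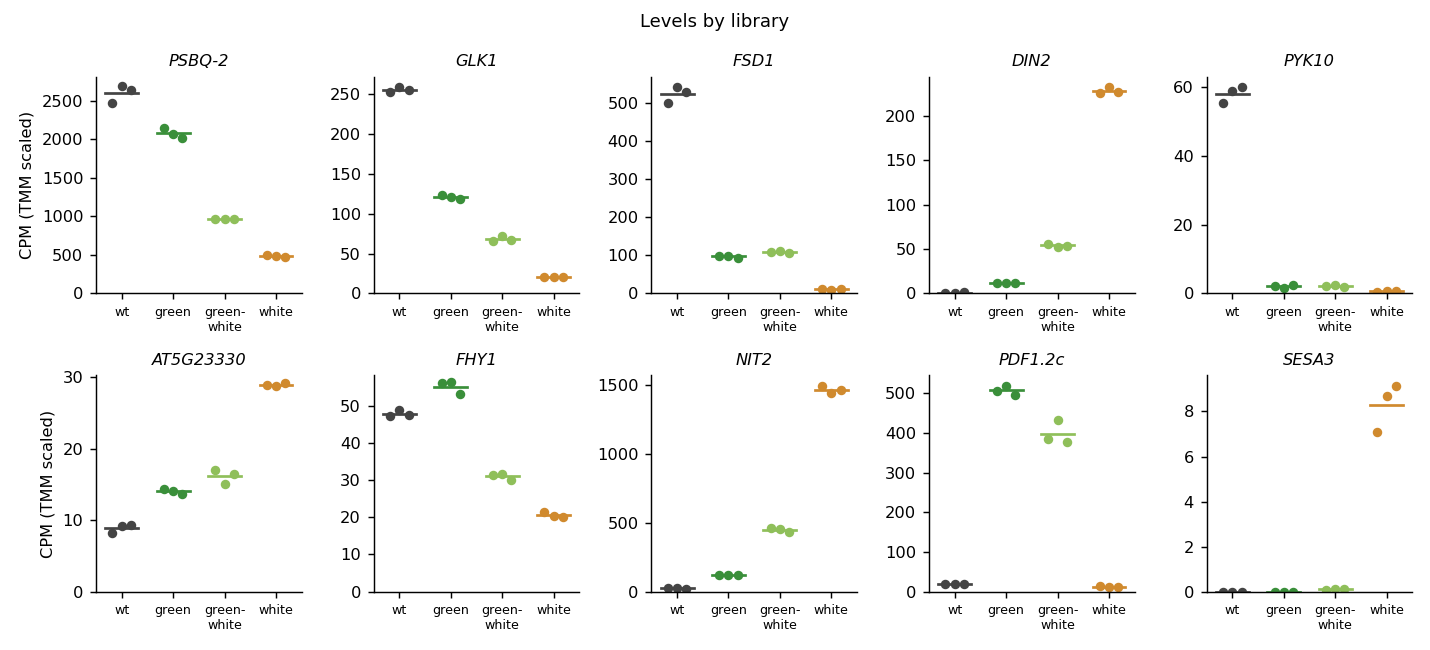
CPM of 10 genes (vertical axes, starting at 0) in each of the 12 libraries, grouped on the horizontal axes as wild type (wt), green, green-white and white melinoe leaves, with points for libraries and bars for group means. White libraries sit at 226 to 232 CPM for DIN2 and at 9.72 to 10.9 CPM for FSD1, against 0.576 to 1.07 and 499 to 540 CPM in wild type.

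Genes of the photosynthetic apparatus fell together. All 21 tested antenna genes and all 34 photosystem and electron transport genes fell, with median log2 fold changes of −2.10 and −1.84. In the Calvin cycle 18 of 19 fell (median −1.27) and in photorespiration 12 of 16 (median −0.82). No member of these 4 lists rose in the fit of all 12 libraries. In photorespiration 1 member was called higher with the 6 libraries alone or without wild-type library A. Without any 1 of the green libraries 2 were. The 4 lists held 26.9 ± 0.23% of a library's counts in wild type and 10.7 ± 0.077% in white leaves (SD, n = 3). The groups did not overlap, and the two-sided exact permutation test gave p = 0.1, the smallest it can give with 3 against 3. Most other lists and families gave the same p, also where the share hardly moved, so it does not set a list apart. The antenna list alone went from 13.01 to 3.79% of the counts, so that white leaves still held a share of antenna transcripts.

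Among the antenna genes, LHCB3 (AT5G54270), a subunit of the main light-harvesting trimer of photosystem II, had 8166, 8569 and 8304 CPM in wild type against 941, 960 and 931 CPM in white leaves, a log2 fold change of −3.14 ± 0.03 (adjusted p = 3.7e-36). LHCB4.3, of the minor antenna, went from 50.4, 54.3 and 54.0 CPM to 5.19, 5.91 and 5.39 CPM (−3.27 ± 0.07). For both genes every white library lay far below every wild-type library. The larger changes of LHCB2.3 (−4.89) and LHCB1.4 (−4.79) belong to genes that share reads with near-identical copies, and their split is uncertain. The smallest falls were those of LHCB7 (−0.33) and LHCA5 (−0.26), members of low abundance in the family.

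In the photosystems, PSBQ-2 (AT4G05180), a subunit of the oxygen-evolving complex, went from 2468, 2694 and 2634 CPM to 495, 483 and 466 CPM, a log2 fold change of −2.43 ± 0.03 (adjusted p = 1.8e-33). PSBS, the protein of energy-dependent quenching, fell by 2.35 and PSAK, of photosystem I, by 2.22 on the log2 scale. The smallest fall was that of PGR5 (−0.55), of cyclic electron flow. Calvin cycle members ranged from the Rubisco small subunit RBCS2B (−4.88, with shared reads) and the bisphosphatase SBPASE (−1.78 ± 0.03) to RPE, an epimerase, which gave −0.03 ± 0.03 (adjusted p = 0.24). Rubisco activase, RCA, went from 11581 to 11800 CPM in wild type to 5328 to 5539 CPM in white leaves.

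Photorespiration members moved unequally. The plastid glutamine synthetase GS2 had 1639, 1692 and 1697 CPM in wild type against 350, 348 and 342 CPM in white leaves (−2.27 ± 0.03). The glycine cleavage subunits AT1G11860 (−1.76 ± 0.03) and GDCH (−1.18 ± 0.03) also fell. The peroxisomal catalase CAT2 (AT4G35090) had 1122 to 1171 CPM in wild type and 1133 to 1166 CPM in white leaves, and its log2 fold change was 0.00 ± 0.03 (adjusted p = 0.99). The aminotransferase AGT1 (−0.05), GLDP2 (0.06, shared reads) and AT1G80380 (0.05), with glycerate kinase activity, did not pass the test either.

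**Figure D3:**
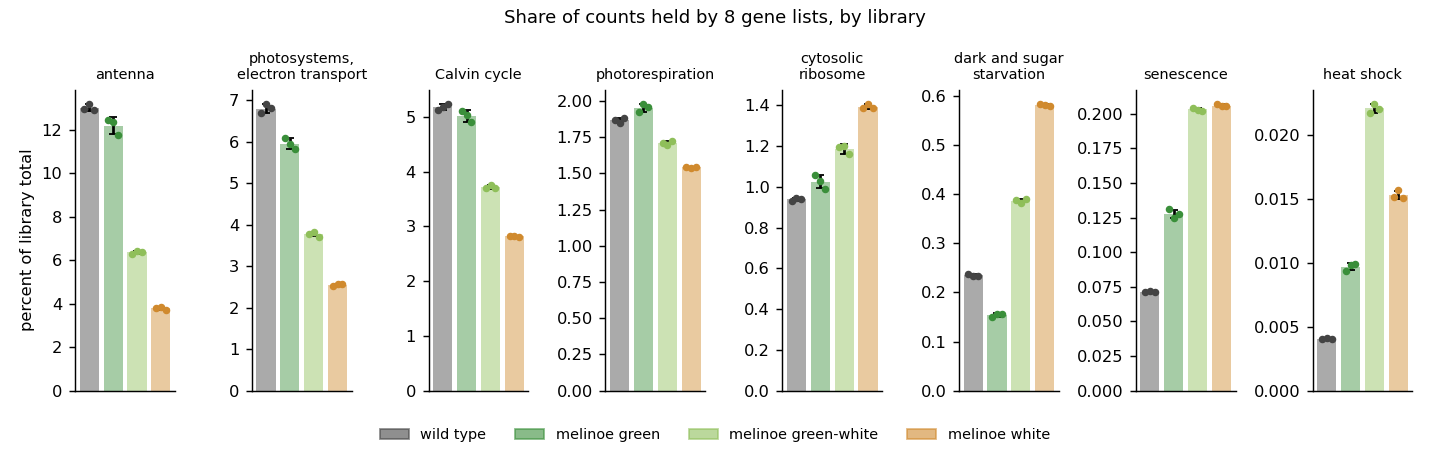
Percent of each library total (vertical axes, starting at 0) held by 8 gene lists in wild type and the 3 melinoe leaf classes, with bars for means of 3 libraries, error bars for SD and points for libraries. The antenna share was 13.01% in wild type and 3.79% in white leaves, and the dark and sugar starvation share was 0.235 and 0.582%, of library totals without scaling.

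The promoters of the photosystem list, read from TAIR10.1 as 250 bases before to 50 after the annotated gene start, were searched for hexamers known from light-regulated genes. The I-box GATAAG was found on either strand in 18 of 34 (52.9%), against 15.0% of 19423 promoters of tested genes. It was also found in 8 of 17 promoters of the starvation list (47.1%), whose genes rose, and in 10 of 24 of the plastid ribosome list (41.7%). The differences between shares were not tested. The G-box CACGTG was found in 12 of 34 (35.3%), against 8.97%. In the antenna list the shares were 6 of 21 (28.6%) and 5 of 21 (23.8%). A match describes letters in a window and is not a site of binding. The 250 bases before the start of PSBQ-2 and of LHCB6, whose transcript fell by 2.299 on the log2 scale, are shown 5′ to 3′ on the gene's strand as members that hold both, with G-box and I-box matches in capitals. They lie on the minus strand at chr4:2673244-2673493 and chr1:5447881-5448130.
PSBQ-2: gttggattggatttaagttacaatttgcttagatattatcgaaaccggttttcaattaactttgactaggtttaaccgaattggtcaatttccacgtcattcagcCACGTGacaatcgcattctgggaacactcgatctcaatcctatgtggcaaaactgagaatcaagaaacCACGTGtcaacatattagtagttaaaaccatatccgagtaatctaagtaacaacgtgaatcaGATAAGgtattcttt
LHCB6: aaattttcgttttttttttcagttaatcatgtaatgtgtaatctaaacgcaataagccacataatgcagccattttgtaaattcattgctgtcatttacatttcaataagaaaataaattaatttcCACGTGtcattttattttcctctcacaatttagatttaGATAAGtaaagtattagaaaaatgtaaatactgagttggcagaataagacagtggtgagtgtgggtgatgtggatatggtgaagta

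Chlorophyll synthesis genes mostly fell, with 23 of 28 lower and 4 higher (median −0.50). PORB (AT4G27440), a light-dependent protochlorophyllide reductase, went from 775, 773 and 783 CPM to 190, 195 and 188 CPM (−2.02 ± 0.03), and PORA fell by 2.27. GUN4, which stimulates magnesium chelatase, gave −2.30 ± 0.08, with shared reads. The 4 genes that rose were GSA1 (0.23 ± 0.03), of the early steps, FLU (0.23 ± 0.04), a negative regulator of the pathway, the ferrochelatase FC1 (AT5G26030, 1.56 ± 0.03), which makes haem, and HEMA2 (1.46 ± 0.04), a glutamyl-tRNA reductase. Of 10 chlorophyll breakdown genes 7 rose and 3 fell, among them SGR2 (AT4G11910, 1.46 ± 0.08) and the chlorophyll b reductase NYC1 (1.22 ± 0.03) on the higher side and the chlorophyllase CLH1 (−1.04 ± 0.03) on the lower. Carotenoid genes split, with 6 of 15 higher and 5 lower. Phytoene synthase PSY (−1.58 ± 0.03) and the cleavage enzyme CCD4 (−1.44 ± 0.03) fell, and the hydroxylase BCH1 (0.80 ± 0.04) rose.

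The regulators of greening went in opposite directions. GLK1 (AT2G20570), a transcription factor of photosynthetic genes, had 252, 259 and 255 CPM in wild type against 20.2, 20.8 and 21.0 CPM in white leaves, a log2 fold change of −3.63 ± 0.04 (adjusted p = 2.1e-35). Its relative GLK2 fell by 2.44. The nuclear-encoded plastid RNA polymerase SCA3 (2.16 ± 0.04, shared reads), the plastid transcription proteins FLN2 (2.09 ± 0.05) and FLN1 (1.84 ± 0.04) and the light-signalling factor HY5 (1.78 ± 0.09) rose. Over the list of regulators and plastid transcription 13 of 19 rose and 6 fell, with a median of 0.74. Nuclear-encoded plastid ribosomal proteins changed little, with 3 of 24 higher and 15 lower, a median of −0.19 and a range from −0.67 to 0.46.

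Starch and sugar transport genes were mostly lower, 15 of 23 against 7 higher. The granule-bound starch synthase GBSS1 (−2.44 ± 0.05), the beta-amylase BAM5 (−2.31 ± 0.06) and the sucrose exporters SWEET11 (−1.30 ± 0.03) and SWEET12 (−1.29 ± 0.04) fell. The hexose importer STP13 went from 182 to 195 CPM to 637 to 642 CPM (1.75 ± 0.03), and the plastid glucose-6-phosphate carrier GPT2 rose by 2.74 ± 0.08. The cell wall invertase CWINV1, which splits sucrose outside the cell, rose by 0.99 ± 0.04.

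All 17 genes of the dark and sugar starvation list rose, with a median of 1.23, against 39.9% of all genes tested. The list was led by DIN2 (AT3G60140), a dark-inducible beta-glucosidase, with 0.576, 0.828 and 1.07 CPM in wild type against 226, 232 and 227 CPM in white leaves, a log2 fold change of 8.10 ± 0.07 (adjusted p = 7.6e-38). Every white library exceeded 200 CPM and no wild-type library reached 2 CPM. Genes of branched-chain amino acid breakdown were among those that rose, such as the isovaleryl-CoA dehydrogenase IVD, a flavoprotein, at 2.06 ± 0.04, and the transaminase BCAT2 (3.60 ± 0.06, shared reads). The proline dehydrogenase ERD5 rose from 40.8 to 42.1 CPM to 262 to 270 CPM (2.68 ± 0.04). The asparagine synthetase ASN1 rose by 1.80 ± 0.03, the autophagy receptor NBR1 by 0.89 ± 0.03 and the flavoprotein ETFQO, which passes electrons to ubiquinone, by 1.02 ± 0.05.

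Senescence genes rose in 12 of 16 cases and fell in 1 (median 1.63). SAG12, a protease used as a marker of late senescence, had 0.741, 0.580 and 0.661 CPM in wild type against 4.53, 5.45 and 4.76 CPM in white leaves (2.89 ± 0.18). The transcription factors WRKY75 (2.95 ± 0.09), NAC019 (2.93 ± 0.04) and ORE1 (1.65 ± 0.05) rose. NAP, another NAC factor of leaf senescence, fell by 0.72, and SWEET15 gave 0.19 ± 0.23 (adjusted p = 0.45). In nitrogen metabolism 7 of 13 rose and 6 fell. The nitrate transporter NRT1.1 (−2.46 ± 0.04), nitrate reductase NIA2 (−1.29 ± 0.03) and nitrite reductase NIR1 (−1.25 ± 0.03) fell, and the glutamate dehydrogenase GDH2 rose from 24.4 to 26.9 CPM to 117 to 124 CPM (2.21 ± 0.04).

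**Figure D4:**
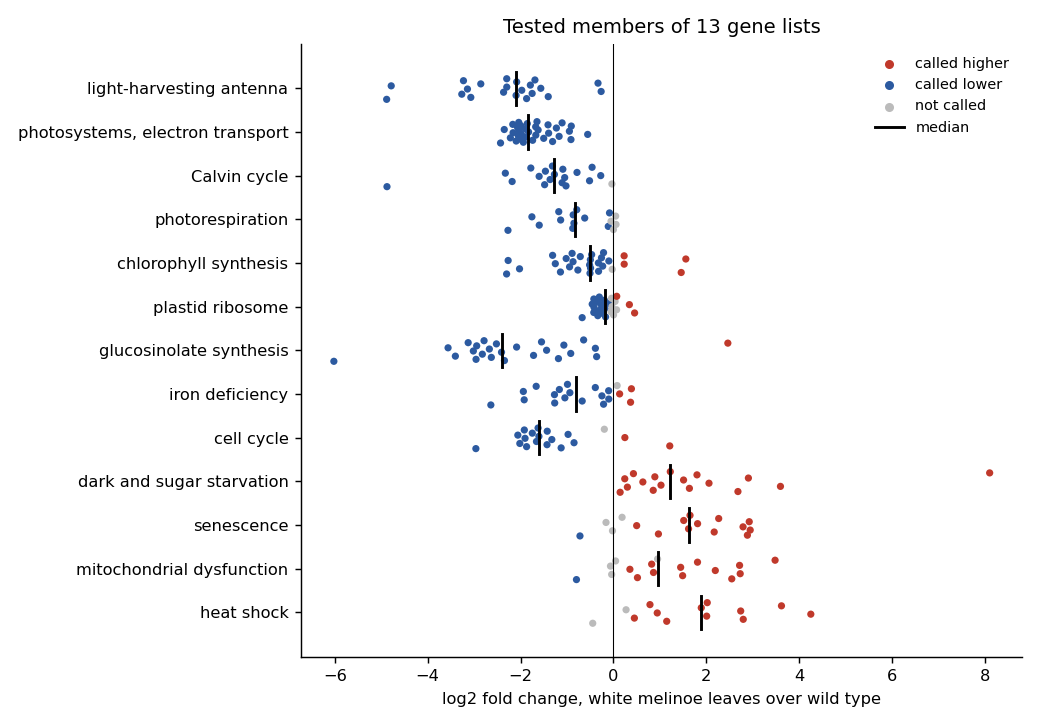
Log2 fold change of white leaves over wild type (horizontal axis) for each tested member of 13 gene lists (rows), with red points called higher, blue called lower and grey not called, and black bars for list medians. Every antenna and photosystem point lies to the left of 0, with medians of −2.10 and −1.84, and every dark and sugar starvation point to the right, with a median of 1.23.

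Of 17 genes that respond to mitochondrial dysfunction or oxidative stress, 12 rose and 1 fell (median 0.95). The alternative oxidase AOX1D (AT1G32350), which bypasses the cytochrome pathway, had 3.99, 3.56 and 4.01 CPM in wild type against 43.2, 44.0 and 42.2 CPM in white leaves, a log2 fold change of 3.48 ± 0.07 (adjusted p = 1.2e-28). AOX1A rose by 1.45 ± 0.03. AT2G21640, annotated as a marker for oxidative stress response, rose by 2.73 ± 0.08, the kinase OXI1 by 2.55 ± 0.08 and the factor ANAC013 by 1.81 ± 0.06. The internal dehydrogenase NDA1 fell by 0.80. OM66 (−0.04 ± 0.03), NDA2 (0.05 ± 0.06), AT5G09570 (−0.06 ± 0.27) and GSTU25 (0.95 ± 0.52, adjusted p = 0.094) did not pass the test.

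Heat shock genes rose in 11 of 13 tested cases, with a median of 1.89, at low levels. The factor HSFA2 (AT2G26150) went from 2.06, 1.78 and 1.07 CPM to 11.2, 11.7 and 11.3 CPM (2.80 ± 0.13). The HSP20-like chaperone AT5G51440 rose from 0.782 to 1.03 CPM to 10.4 to 12.1 CPM (3.62 ± 0.13), HSP17.6A by 4.25 ± 0.25 and HSP70 by 1.89 ± 0.05. HSP18.2 (−0.45 ± 0.27) and AT5G37670 (0.27 ± 0.20) did not pass the test. In the list of protein folding in the endoplasmic reticulum, 5 of 9 rose and 2 fell (median 0.11), with the transcription factor BZIP60 at 0.98 ± 0.04.

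The mitochondrial dysfunction motif, a pair of spaced half-sites searched on either strand, was held by the promoters of 6 of 17 genes of the mitochondrial list (35.3%) and 4 of 13 of the heat shock list (30.8%). Among the 19423 promoters of all tested genes 219 held it (1.13%), and among the 2083 genes called at least 2-fold higher 58 did (2.78%). The motif was known when the mitochondrial list was written, and both lists were written with earlier results known. Its share in either list is therefore no independent observation. Shown 5′ to 3′ are the 250 bases before the start of members of both lists that carry a match there, with the match in capitals. AT2G21640 lies at chr2:9254128-9254377, AT5G51440 at chr5:20890913-20891162 and HSP23.6-MITO, which rose by 1.15 ± 0.46, at chr4:12916676-12916925, all on the plus strand.
AT2G21640: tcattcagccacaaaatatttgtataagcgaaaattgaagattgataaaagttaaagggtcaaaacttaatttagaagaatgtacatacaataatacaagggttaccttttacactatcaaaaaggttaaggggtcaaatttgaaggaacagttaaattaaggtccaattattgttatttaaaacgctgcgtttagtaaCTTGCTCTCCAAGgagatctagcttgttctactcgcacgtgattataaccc
AT5G51440: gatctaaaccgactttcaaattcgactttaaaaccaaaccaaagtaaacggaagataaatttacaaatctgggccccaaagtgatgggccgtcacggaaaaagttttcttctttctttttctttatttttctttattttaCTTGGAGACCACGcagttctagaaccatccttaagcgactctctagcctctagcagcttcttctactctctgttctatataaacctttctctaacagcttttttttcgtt
HSP23.6-MITO: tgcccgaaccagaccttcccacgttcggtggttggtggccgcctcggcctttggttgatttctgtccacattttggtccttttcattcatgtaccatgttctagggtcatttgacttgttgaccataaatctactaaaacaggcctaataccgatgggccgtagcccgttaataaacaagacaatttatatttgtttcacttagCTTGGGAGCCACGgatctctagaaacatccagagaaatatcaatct

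Antioxidant enzymes and ferritins were evenly divided, with 10 of 22 higher and 10 lower. The iron superoxide dismutase FSD1 (AT4G25100) had 499, 540 and 529 CPM in wild type against 10.9, 9.72 and 10.5 CPM in white leaves, a log2 fold change of −5.65 ± 0.05 (adjusted p = 1.7e-38). The chloroplast copper/zinc superoxide dismutase CSD2 went the other way, from 74.4, 81.4 and 78.4 CPM to 446, 429 and 450 CPM (2.50 ± 0.04). Its copper chaperone CCS rose by 2.42 ± 0.04. None of these 3 genes had overlapping groups, as was the case for 81.3% of all genes tested. The ferritin FER1, an iron store of the plastid, rose by 1.91 ± 0.04, and the catalase CAT3 (AT1G20620) fell by 1.86.

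Genes of the iron deficiency response were mostly lower, 16 of 20 against 3 higher (median −0.81). The nicotianamine synthase NAS4 went from 12.1, 11.9 and 12.6 CPM to 1.95, 1.78 and 2.12 CPM (−2.64 ± 0.10). The bHLH factors BHLH39 (−1.92 ± 0.12) and BHLH38 (−1.94 ± 0.10, shared reads) fell, as did AT1G47400 (−0.99 ± 0.08), AT1G47395 (−1.27 ± 0.11) and AT2G30766 (−1.27 ± 0.05, shared reads). YSL1, a transporter of iron-nicotianamine, rose by 0.39 ± 0.05. Without white library C the list median was −0.69.

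Glucosinolate synthesis, the source of sulfur-rich defence compounds of the cabbage family, fell almost as a whole. Of 25 genes 24 fell and 1 rose, with a median of −2.41. MAM3 (AT5G23020), which elongates methionine for long-chain glucosinolates, had 12.7, 10.7 and 11.5 CPM in wild type against 0.209, 0.280 and 0.0348 CPM in white leaves, a log2 fold change of −6.02 ± 0.21 (adjusted p = 2.9e-22). The regulators MYB29 (−3.41 ± 0.09) and MYB76 (−3.13 ± 0.20) and the core enzymes CYP83A1 (−2.52 ± 0.03) and CYP79F1 (−2.96 ± 0.03, shared reads) fell. MYB122 was the member that rose (2.46 ± 0.65), from at most 0.0828 CPM to 0.243 to 0.488 CPM. It passed the low-count filter through the green-white libraries (1.045 to 1.57 CPM). With the 6 libraries alone, 0 members of the list were called higher. PYK10 (AT3G09260), which hydrolyses glucosides and is stored in endoplasmic reticulum bodies, went from 55.2, 58.6 and 59.8 CPM to 0.522, 0.629 and 0.799 CPM (−6.47 ± 0.10), and the 5 tested genes of its list all fell. The low-sulfur response genes LSU3 (−4.98 ± 0.17) and LSU1 (−4.72 ± 0.12) were among the largest falls of all named genes.

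Defence and hormone lists were divided. Of 25 jasmonate genes 13 rose and 11 fell, with the jasmonate hydroxylase CYP94B3 higher (2.14 ± 0.05) and the lipoxygenase LOX2 (−1.71 ± 0.03), the storage protein VSP2 (−1.89 ± 0.03) and CORI3 (−2.43 ± 0.03) lower. Among 14 ethylene and defensin genes 8 rose and 6 fell. ACS2, which makes the precursor of ethylene, went from 0.658, 0.580 and 0.578 CPM to 24.0, 24.3 and 22.3 CPM (5.27 ± 0.12). In the salicylic acid list 11 of 20 rose and 8 fell, with FMO1 (3.04 ± 0.16) and PBS3 (1.58 ± 0.05) higher and PR1, a marker of this branch, lower (−1.55 ± 0.04). For abscisic acid, cold and drought 7 of 22 rose and 12 fell, RD29B at 3.29 ± 0.15 and the galactinol synthase GOLS2 at −3.21 ± 0.08. Anthocyanin and flavonoid genes fell in 7 of 15 cases and rose in 3, and their regulator PAP1 (AT1G56650) fell by 2.21.

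Large families followed no single direction except a few. Among WRKY factors 35 of 55 rose and 11 fell (median 0.44), and among NAC factors 36 of 62 rose and 18 fell (median 0.42). ANAC087 went from 2.84, 2.32 and 2.35 CPM to 37.0, 38.6 and 36.4 CPM (3.90 ± 0.08). Tau class glutathione transferases divided into 11 of 26 higher and 9 lower, GSTU3 at 4.90 ± 0.23 and GSTU20 at −3.70 ± 0.05. Of 16 regulatory subunits of the proteasome 14 rose, RPT3 by 1.04 ± 0.03, and 1 fell (median 0.50). Cytosolic ribosomal proteins rose in 92 of 181 cases and fell in 43 (median 0.12), and they held 0.938 ± 0.0084% of the counts in wild type and 1.39 ± 0.011% in white leaves (SD, n = 3; two-sided exact permutation p = 0.1, the smallest possible). On the scaled level the family summed to 10206 to 10459 CPM in wild type and 12450 to 12683 CPM in white leaves, a smaller difference than in the share.

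Cell cycle, alpha-expansin and SAUR genes were mostly lower, and the XTH family and the clock list were divided. Of 19 cell cycle genes 16 fell and 2 rose (median −1.61). The replication licensing genes MCM2 (−2.02 ± 0.12) and MCM7 (−1.92 ± 0.12) fell, and the mitotic cyclin CYCB1;3 went from 0.619 to 1.03 CPM to 0.0348 to 0.175 CPM (−2.96 ± 0.50). CYCB1;1 rose (1.21 ± 0.40, adjusted p = 0.0065), but without wild-type library A its adjusted p was 0.052. Alpha-expansins, which loosen cell walls, fell in 11 of 14 cases and rose in 1 (median −1.80), led by EXPA16 (−3.89 ± 0.13). Auxin-responsive SAUR genes fell in 42 of 52 cases and rose in 5 (median −1.93), and 11 of 13 plasma membrane aquaporins fell (median −0.86). In the XTH family of xyloglucan-modifying enzymes 11 of 24 rose and 12 fell, and the unscaled share of counts went from 0.152 to 0.232%. Scaled levels of the family summed to 1640 to 1717 CPM in wild type and 2072 to 2107 CPM in white leaves, a smaller difference. TCH4 went from 458 to 488 CPM to 1070 to 1092 CPM (1.19 ± 0.03), and XTH25 rose by 1.22 ± 0.04. XTH31 had 38.4, 42.0 and 37.6 CPM in wild type against 1.11, 1.36 and 1.36 CPM in white leaves (−4.94 ± 0.09). In the clock list 9 of 13 rose and 4 fell, with TOC1 higher (1.399 ± 0.04) and LHY lower (−1.93 ± 0.06). The hour of sampling is not given in the labels, so a shift in time between groups was not tested.

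Seed storage genes were found in white leaves at low levels. The 8 tested members of the seed list had at most 0.331 CPM in a wild-type library and so passed the low-count filter through the white libraries, which fixes their direction. The albumin gene SESA3 (AT4G27160) had no count in the wild-type libraries and 7.07, 8.67 and 9.14 CPM in the white libraries, at least 67.0-fold higher against a floor of 3 counts per library. The cruciferin gene CRC (AT4G28520) went from 0.288, 0.166 and 0.124 CPM to 15.6, 16.6 and 16.8 CPM (6.37 ± 0.18), and CRA1 from 0.0826 to 0.331 CPM to 9.44 to 10.6 CPM (5.45 ± 0.21). The oleosin gene OLEO1 and the albumin gene SESA2 were at least 21.8-fold and 16.4-fold higher by the same floor. The whole list summed to 39.8 to 45.3 CPM in white and 0.248 to 0.617 CPM in wild-type libraries. Its other members EM1 and ABI3, a seed regulator, were under the low-count filter, with means of 0.348 and 0.0697 CPM in white leaves and no count in wild type.

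Other genes among the 12 highest changes, chosen by size alone, were of several kinds. The sucrose transporter gene SUC7 had 0.0411 CPM in 1 wild-type library, no count in the other two, and 15.5 to 17.8 CPM in white leaves, close to its 15.5 to 16.7 CPM in green-white leaves. LEA7, a late embryogenesis abundant protein, went from 0.247, 0.166 and 0.165 CPM to 29.9, 31.7 and 29.9 CPM (7.27 ± 0.13), and PAP85, a cupin, from 0.0823 to 0.165 CPM to a mean of 17.9 CPM (7.12 ± 0.18). M17 rose by 5.92 ± 0.13 and EPR1 (AT2G27380), an extensin-like gene, by 7.58 ± 0.35. The G-box was present in 6 of 8 promoters of the tested seed genes (75.0%, against 8.97% of all). These genes passed the low-count filter through the white libraries, and their list was written with earlier results known. The share is therefore no independent observation, and the difference was not tested. Shown 5′ to 3′ with the G-box in capitals are the 250 bases before the start of OLEO1 (chr4:12900180-12900429) and SESA3 (chr4:13611546-13611795), both on the plus strand and without a count in wild type.
OLEO1: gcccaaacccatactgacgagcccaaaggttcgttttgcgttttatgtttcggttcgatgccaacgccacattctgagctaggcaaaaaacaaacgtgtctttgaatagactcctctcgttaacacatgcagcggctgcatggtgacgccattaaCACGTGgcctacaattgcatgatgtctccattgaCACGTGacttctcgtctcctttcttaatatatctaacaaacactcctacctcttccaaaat
SESA3: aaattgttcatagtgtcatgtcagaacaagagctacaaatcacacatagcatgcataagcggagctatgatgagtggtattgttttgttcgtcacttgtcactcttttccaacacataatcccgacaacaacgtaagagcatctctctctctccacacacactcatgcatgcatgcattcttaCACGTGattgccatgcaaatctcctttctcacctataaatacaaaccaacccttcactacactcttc

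Markers of other cell types and organs moved as well. Xylem markers fell in 6 of 6 tested cases, and the list of 7 summed to 17.9 to 18.8 CPM in white against 44.1 to 45.1 CPM in wild type. Phloem markers fell in 3 of 3, at 144 to 148 against 303 to 315 CPM. Epidermis and trichome markers fell in 5 of 8 and rose in 2, at 1007 to 1023 against 1388 to 1416 CPM, and guard cell markers rose in 2 of 5 and fell in 2, at 48.4 to 50.4 against 55.5 to 56.2 CPM. Floral genes rose in 5 of 7 tested cases and fell in 1, at 19.3 to 20.8 against 14.8 to 16.2 CPM, with SEP1 (AT5G15800) at 1.56 ± 0.10 and SEP3 at −1.64 ± 0.10. The meristem list summed to 1.18 to 1.57 against 0.166 to 0.206 CPM, KNAT1 being the 1 member tested (1.94 ± 0.42). SEP2 and AP1, among the floral genes that rose, and KNAT1 had at most 0.165 CPM in a wild-type library. They passed the low-count filter through the white libraries, which fixes their direction. Root markers were near 0, at most 0.104 CPM in white and 0.166 CPM in wild type, and WER had no count in either group. The part of these cell types in the other results was not tested.

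The 6 largest gains in CPM, a scale that is not per length, included BCB, a blue copper protein, from 280, 282 and 271 CPM to 1896, 1879 and 1935 CPM (2.78 ± 0.03), and NIT2, a nitrilase, from 23.3 to 24.9 CPM to 1441 to 1497 CPM (5.93 ± 0.04). NIT2 shares reads with near-identical copies, and its own value is uncertain. The chaperone HSC70-1 (0.91 ± 0.03), HSPRO2 (1.28 ± 0.03), SIP2 (2.48 ± 0.03) and the transporter PEN3 (AT1G59870, 0.82 ± 0.03, shared reads) completed the 6. The 6 largest losses were LHCB1.3, LHCB1.5, LHCB3, LHCB1.2, LHCB1.4 and RBCS3B, and of these LHCB3 alone had whole counts, though it overlaps AT5G54280.

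Several genes were counted in only 1 of the 2 groups compared. Of the 19424 genes tested, 45 had no count in any wild-type library and 9 none in any white library. Such a gene passed the low-count filter through other libraries and can be called in 1 direction only. Beside the seed genes, the polygalacturonases PGAZAT and ADPG1 were at least 33.8-fold and 24.3-fold higher in white leaves, with no count in wild type. The hydroxysteroid dehydrogenase HSD1 was at least 23.3-fold higher. CIB1, a bHLH factor that binds cryptochrome, had 7.96, 7.93 and 8.69 CPM in wild type and no count in white leaves, at least 78.4-fold lower. CIB1 overlaps AT4G34540 and has fractional counts, so its reads could have been assigned to the other gene. MLP165 (at least 8.04-fold) and the channel CNGC14 (at least 5.27-fold) were lower by the same floor, at under 1.1 CPM in wild type.

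White leaves also differed from green-white leaves, the class that stood between green and white in its label. Of 19424 genes, 12480 differed (64.3%), 6505 higher (33.5%) and 5975 lower (30.8%) in white, and at least 2-fold differences numbered 577 higher (2.97%) and 1249 lower (6.43%). Against green leaves 14094 differed (72.6%), 7044 higher (36.3%) and 7050 lower (36.3%), and at least 2-fold differences numbered 1439 higher (7.41%) and 1733 lower (8.92%). In this contrast with green-white leaves 20 of 21 antenna genes, 33 of 34 photosystem genes and 25 of 25 glucosinolate genes were lower in white, and 15 of 17 starvation genes were higher. Heat shock genes were lower in white in 7 of 13 cases and higher in 0 by the same edgeR test. The 3 mutant classes share their wild-type libraries in comparisons with wild type, so their values are given side by side. The antenna median over wild type was −0.20 for green, −1.27 for green-white and −2.10 for white leaves, and the starvation median −0.40, 0.71 and 1.23. The iron deficiency median was 0.67, −0.32 and −0.81 in the same order.

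**Figure D5:**
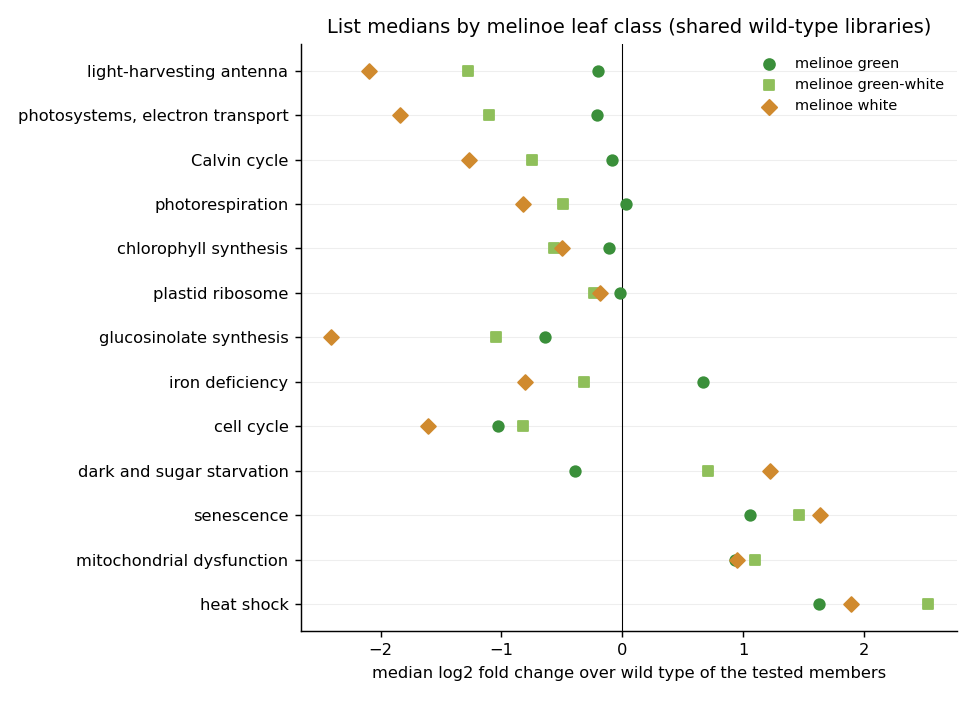
Median log2 fold change over wild type of the tested members (horizontal axis) of 13 gene lists (rows) in green (circles), green-white (squares) and white (diamonds) melinoe leaves, which share the wild-type libraries. The white diamond is the lowest of the 3 for the antenna list (−2.10 against −1.27 and −0.20), and the green-white square is the highest for heat shock (2.52).

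Genes named by the rule for the lowest white levels against green-white leaves, and list members beside them, are given with their levels in all classes. The plant defensin PDF1.2c (AT5G44430) had 18.9, 19.0 and 20.2 CPM in wild type against 13.6, 12.4 and 13.1 CPM in white leaves (−0.57 ± 0.07), against means of 507 CPM in green and 398 CPM in green-white leaves. NATA1, an acetyltransferase of ornithine, went from 20.5, 21.0 and 20.6 CPM in wild type to 2.23, 1.99 and 2.33 CPM in white leaves (−3.24 ± 0.08), with 46.1 CPM in green and 51.9 CPM in green-white leaves. AACT1 (AT5G61160), an acyltransferase gene, fell from 13.9 to 16.0 CPM to 1.88 to 2.45 CPM (−2.83 ± 0.10), with 80.1 and 73.2 CPM in these classes. DIN11, a dioxygenase of the starvation list, rose over wild type (2.91 ± 0.10) but stood at 12.9 to 14.8 CPM in white leaves, against 83.1 CPM in green and 152 CPM in green-white leaves, and differed from green-white by −3.47 ± 0.05. In the other direction, CRC had 0.234 CPM in green-white leaves and no count in green leaves, and white exceeded green-white leaves by 6.10 ± 0.16.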

How the data were processed

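Per the labels, polyadenylated RNA went into strand-specific libraries, and reads were cleaned with SOAPnuke 1.5.2 before alignment with HISAT2 2.0.4 against TAIR10. Bowtie2, RSEM and DESeq2 stand in the submitters' processing notes without roles, and no source used here gives the annotation or strand setting. Each estimated count is as deposited by the authors, in 3 tables that each set 1 mutant class against wild type. The authors also deposited TPM and their own log2 fold change, p-value and q-value, and the 18 per-library TPM columns were not used. Of the counts 92.6% were whole (tolerance 0.005), and genes with fractions share reads. The authors' deposited table of white leaves held 24429 genes, 14779 of them with a q-value under 0.05.

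The tables were joined (25169 genes, all matched to the TAIR10.1 annotation), and 9750 missing values were set to 0. Genes encoded in plastids or mitochondria numbered 0. Counts were rounded and fitted with edgeR 4.0.16 (TMM factors, low-count filter, quasi-likelihood test, Benjamini-Hochberg adjustment), over all 12 libraries with 8 residual degrees of freedom. A gene below the filter's level in wild type passed only through mutant libraries, which can fix its direction. The common biological coefficient of variation was 0.0272, so small differences pass the test. Chi-square per gene between libraries of the same group was 1.57 to 2.00, above sampling noise. A simulation drew all counts from wild-type means with an assumed spread. It changed 68 genes by 1.25-fold, 66 by 1.5-fold and 66 by 2-fold. Of these 69.1%, 98.5% and 98.5% were recovered, with 6 false calls among 18862 genes. Most genes differ between the real groups, which the simulation left out. Its figures therefore do not give the recovery or the false calls of this comparison. Folds against a group at 0 use a floor of 3 counts per library and cover counting error only.

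The comparison, the 36 gene lists and 16 families and the tests were chosen with earlier results of these data known. Families follow gene symbols, except that ribosomal genes were taken from annotation notes, and unrelated genes were removed from the aquaporin, auxin and cytochrome families, after the files were seen. Named genes are the flavin list; the 12 highest and 12 lowest changes among called genes with a symbol, at least 5 CPM and no overlap; up to 4 called members of largest change per list and 2 in the other direction; the 6 largest gains and losses; up to 8 genes with no count in 1 group; and the 6 highest and lowest against green-white leaves. Not all of these are printed, and some further list members were chosen after their values were seen. The alternatives were RLE and upper-quartile factors, DESeq2 1.42.0, no low-count filter, the 6 libraries alone and leaving out each library.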

Additional observations from a re-analysis of the deposited data

Results flagged for a closer look

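Among the 303 named genes, 19 had white and green-white leaves on opposite sides of wild type. Both differences from wild type passed the threshold in edgeR's test. Other genes tested were not searched for this pattern, so no share over all genes stands beside it. In 14 of the 19 white was lower than green-white. Some genes were named by this very contrast, so these counts are a description only. The log2 differences of white minus green-white were −5.126 for AACT1 (AT5G61160), −4.93 for PDF1.2c, −4.775 for the peroxidase Prx37 (AT4G08770) and −4.567 for NATA1. All of these are among the lowest in this contrast, by which genes were named, so that their sizes are a description. Further differences were −4.313 for PDF1.2a (AT5G44420), −2.67 for TAT3, −1.218 for HSFC1, −1.199 for BCH2 and −1.123 for CLH1. The smallest were −0.8598 for EDS1, −0.7112 for CRT3, −0.4568 for HSFB2A, −0.2412 for GSR 1 (AT5G37600) and −0.2066 for SHD. In the other 5 white was higher, by 2.555 for the floral gene PI, 0.5717 for YSL1, 0.5694 for FRO7, 0.3284 for PYRD (AT4G20960) and 0.2653 for AT5G65220.

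PDF1.2a had 46.5 to 47.6 CPM in wild type, 29.1 to 31.1 CPM in white and 580 to 635 CPM in green-white leaves. Prx37 was below 1 CPM in wild type and in white leaves, and without wild-type library A its fall against wild type no longer passed (−0.87, adjusted p = 0.068). The differences of PYRD, FRO7, SHD, HSFB2A and AT5G65220 from wild type also lost the call under at least 1 alternative.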

How the results depend on the processing

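Counts of genes changed in white leaves against wild type, green-white and green leaves stayed within 1.5 times under RLE and upper-quartile factors, DESeq2, no low-count filter, the 6 libraries alone (wild type only) and each left-out library. The count against wild type, 15521, ranged from 15121 to 15806 when a library was left out, and was 14741 with DESeq2. Upper-quartile factors moved the share of called genes that were higher from 49.9 to 44.1% and the median of all genes by −0.08. Among 303 named genes and 5148 pairs of gene and setting, 14 genes changed call or direction: 13 pairs lost the call, 6 gained it and 1 reversed. The reversal was AT5G65220, a plastid ribosomal protein gene, from 0.07 to −0.0097 with upper-quartile factors. COS1 (−0.12, adjusted p = 0.02) and NUDX23 (−0.18, adjusted p = 0.0018) passed with those factors. For lists and families, 61 pairs of a value and a setting moved, a median by 0.1 or across 0 or a count by over 1.5 times, 12 of them with upper-quartile factors. With those factors the medians of the flavin (−0.0087) and antioxidant (−0.0563) lists crossed 0, and 4 flavin genes were lower. The carotenoid median was 0.001 with RLE factors. Leaving out a library gave medians of 0.849 to 1.2276 for the mitochondrial list, 1.554 for heat shock without wild-type library A, and up to 0.3315 for the tau class glutathione transferases. The causes were not tested. No paired analysis was possible because the columns carry letters that the labels do not tie to replicate numbers. Depth limits genes of few counts, and copies that share reads cannot be resolved.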
